A study of Homo sapiens with 33 samples.

Results

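RNA of 6 defensin genes was followed in NB4 cells, an established human line of acute promyelocytic leukaemia. The genes were taken by symbol, with earlier results of these data known: DEFA1, DEFA1B, DEFA3 and DEFA4 of the alpha-defensins, the pseudogene DEFA8P and the beta-defensin DEFB1. They are 6 of the 85160 genes in the count table. NB4 cells carry the PML-RARA fusion that blocks maturation at the promyelocyte stage, and all-trans retinoic acid (ATRA), a ligand of the retinoic acid receptor, releases that block. Untreated NB4 cells were collected at 0 h, and cells given 1 µM ATRA or the solvent DMSO were collected at 4, 12, 24, 72 and 120 h. Fresh medium with drug was added on day 3, per the labels, which do not say whether this came before or after the 72 h harvest. Each of the 11 groups had 3 libraries, labelled as biological replicates 2, 4 and 5, so p-values measure the spread between these replicates of 1 cell line.

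Defensins are short cationic peptides, held in shape by disulfide bonds, that damage microbial membranes. DEFA1, DEFA1B and DEFA3 encode the main neutrophil peptides and DEFA4 a rarer, related neutrophil peptide. In bone marrow their RNA is made mostly by promyelocytes and myelocytes, and the peptides are stored in the azurophil (primary) granules, so that mature neutrophils keep the peptide but little of the RNA. DEFB1 encodes a peptide made constitutively by many epithelia and also by some blood cells.

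All 6 genes lie on the minus strand of chromosome 8 in GRCh38. DEFB1 (ENSG00000164825) spans 6855971 to 6878022, DEFA4 (ENSG00000164821) 6935741 to 6952985 and DEFA8P (ENSG00000223629) 6950585 to 6952985. DEFA1 (ENSG00000206047) spans 6977649 to 6980080, DEFA1B (ENSG00000240247) 6996766 to 7018297 and DEFA3 (ENSG00000239839) 7015869 to 7018301. The annotated transcripts of DEFA1 and DEFA1B are identical over 485 aligned bases, and those of DEFA1 and DEFA3 differ at 2 of 485. The deposited counts therefore do not say which of these copies a fragment came from, and the 3 rows were summed and treated as 1 signal. DEFA1B and DEFA3 also share 157 exon bases in the table, 24.2% of DEFA1B and 31.5% of DEFA3, and a fragment there was counted in both rows. DEFA4 and DEFA8P share an exon of 83 bases, which is 10.6% of DEFA4 and 4.7% of DEFA8P.

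The counts of all rows summed to 18341456 to 33490654 per library, with a median of 25927472. Libraries of the same group correlated across genes at 0.9954 or above on the log scale, and no library was identical to another. Libraries of 0, 4 and 12 h came from lane 4, and from 24 h onwards replicate 2 came from lane 2 and replicates 4 and 5 from lane 3, per the file headers. ATRA and DMSO libraries of the same time and replicate shared a lane, and the libraries of 24, 72 and 120 h came from the same lanes. Comparisons of these times with 12 h or with untreated cells crossed lanes, and there lane and time cannot be told apart. These are bulk libraries, in which fewer expressing cells and less RNA per cell cannot be told apart. All 4 signals (the sum, DEFA4, DEFA8P and DEFB1) passed the filter on low counts and were among the 22969 genes tested. Levels are CPM, the counts scaled to a common library size after TMM normalisation, given as mean ± SD over 3 libraries. Log2 fold changes carry the standard error of the fit, and a change was called at an adjusted p under 0.05 from the quasi-likelihood test of edgeR, with p-values adjusted by Benjamini-Hochberg over all genes tested.

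The alpha-defensins rose with ATRA from 12 h, peaked at 72 h and had dropped again by 120 h, while DEFB1 fell until no fragment was left. The sum of DEFA1, DEFA1B and DEFA3 stood at 9.63, 12.1 and 12.1 CPM in untreated replicates 2, 4 and 5. With ATRA it was 7.27, 7.81 and 10.7 CPM at 4 h and 39.9, 35.99 and 37.8 CPM at 12 h. At 24 h the ATRA libraries reached 246, 309 and 298 CPM. All ATRA libraries of 12 h and 24 h therefore lay above every untreated library, whereas those of 4 h overlapped them. At 72 h the values were 764, 833 and 725 CPM, the highest of the series, and at 120 h they were 104, 94.9 and 80.0 CPM. The sum made 0.0724% of all counts in ATRA cells at 72 h and 0.00109% in untreated cells. Fragments of the exon bases shared by DEFA1B and DEFA3 enter that share through both rows. The DEFA3 row alone made 0.0483% and 0.000657%.

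**Figure D1:**
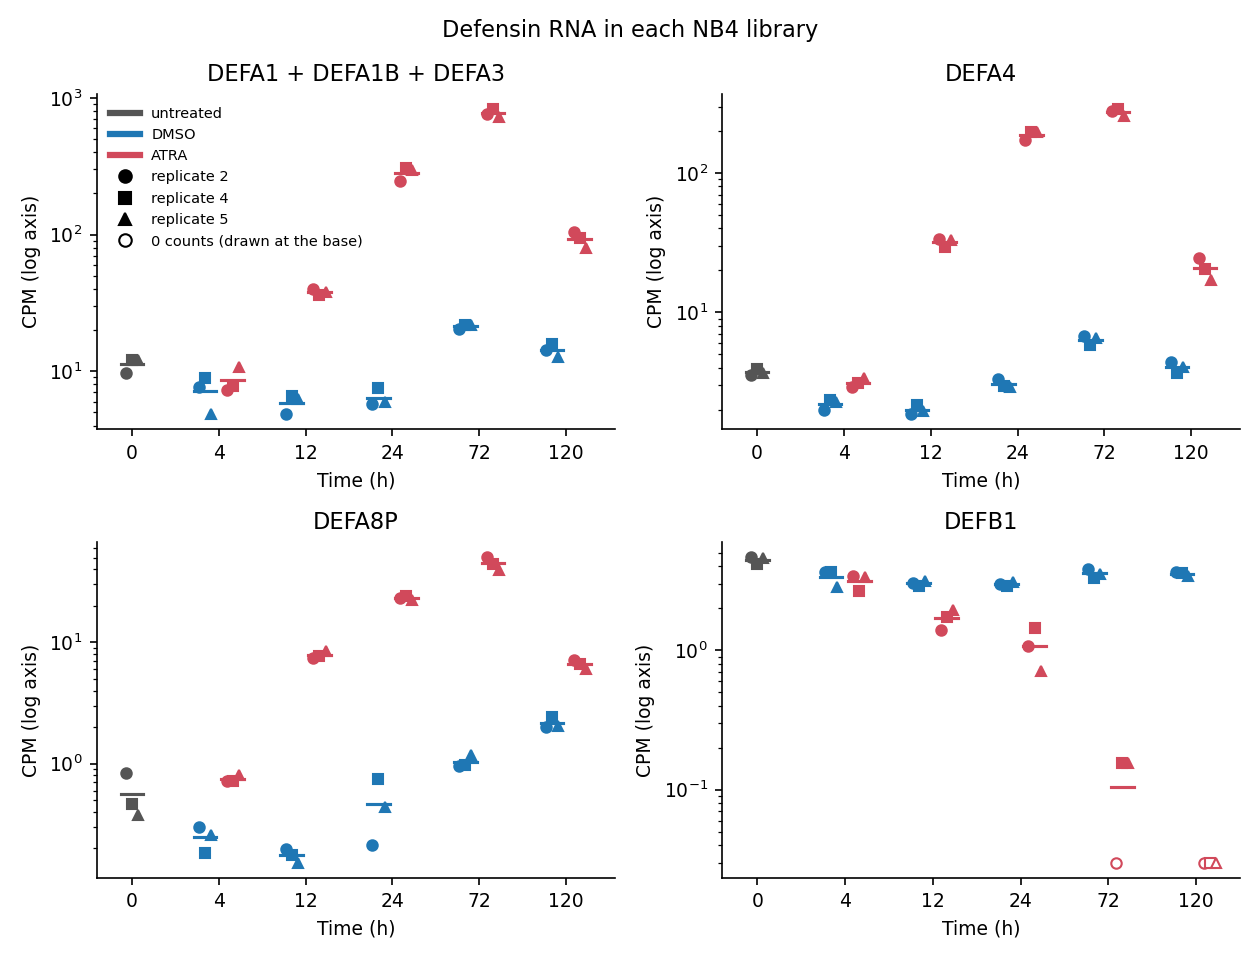
CPM (log axis) of the summed DEFA1, DEFA1B and DEFA3 rows, DEFA4, DEFA8P and DEFB1 by time (h) in each of 33 libraries. Points are libraries, horizontal bars are group means, and open symbols at the base are libraries with 0 counts. The 3 alpha-defensin signals are highest with ATRA at 72 h, and DEFB1 has 0 counts in all 3 ATRA libraries of 120 h.

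In DMSO the same sum stayed between 4.86 and 8.90 CPM in all 9 libraries of 4, 12 and 24 h. It was 20.4, 21.6 and 21.8 CPM at 72 h and 14.2, 15.8 and 12.7 CPM at 120 h, so the DMSO libraries of 72 h stood above those of every other time. Against DMSO of the same time, the ATRA sum differed at 4 h by a log2 fold change of 0.26 ± 0.16, which did not pass (adjusted p = 0.252, edgeR, where 24.7% of all genes were called). Without DMSO replicate 4 of 4 h it was called, at 0.47 (adjusted p = 0.0429, over all alternatives 0.0429 to 0.908). At 12 h the sum was 6.43-fold higher with ATRA (log2 2.67 ± 0.14, adjusted p = 1.23e-18, edgeR), in a comparison that called 38.7% of genes. The difference was 44.4-fold at 24 h (5.46 ± 0.15, adjusted p = 1.53e-28, edgeR, 33.2% of genes called). It was 36.4-fold at 72 h (5.18 ± 0.14, adjusted p = 8.29e-30, edgeR, 64.7% called) and 6.54-fold at 120 h (2.71 ± 0.13, adjusted p = 3.25e-21, edgeR, 70.6% called). From 12 h on, every ATRA library lay above every DMSO library of its time. Because the DMSO libraries of 72 h stood high, the 72 h change became 6.34 when the averaged DMSO groups of 24 h and 120 h took their place.

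The rows behind the sum moved in the same direction at 12, 24, 72 and 120 h. They are not independent, because a fragment in the 157 exon bases shared by DEFA1B and DEFA3 was counted in both rows. Their agreement is therefore no separate evidence. The DEFA3 row held most of the counts, which does not rank the copies by their RNA. It had 10983, 14092 and 12517 fragments in the ATRA libraries of 72 h against 269, 304 and 339 in DMSO. DEFA1B held 5137, 6784 and 5647 fragments in those ATRA libraries. The DEFA1 row held 335, 452 and 382. At 24 h the log2 change with ATRA was 5.55 ± 0.14 for DEFA3, 5.29 ± 0.15 for DEFA1B and 5.00 ± 0.38 for DEFA1. At 12 h the DEFA1 row alone gave 1.90 ± 0.48, at 72 h 4.59 ± 0.29 and at 120 h 1.92 ± 0.39, each smaller than that of the sum. At 4 h the DEFA1 row had 3, 2 and 12 fragments with ATRA and 9, 9 and 9 with DMSO, a log2 change of -0.76 ± 0.57 (adjusted p = 0.373, edgeR), and none of the 3 rows was called. The ratio of DEFA1B to DEFA3 counts was 0.602 ± 0.0425 in untreated cells and 0.632 ± 0.0453 with DMSO at 72 h, but 0.467 ± 0.0152 with ATRA at 72 h. The ATRA and DMSO ratios did not overlap at 12, 24, 72 or 120 h, and this difference was not tested.

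DEFA4 also rose with ATRA, peaked at 72 h and dropped by 120 h. Its libraries held 3.56, 3.89 and 3.64 CPM untreated, and with ATRA 2.89, 3.11 and 3.38 CPM at 4 h. With ATRA at 12 h DEFA4 stood at 33.4, 29.2 and 33.1 CPM. At 24 h it was 173, 197 and 196 CPM, so 24 h lay far above 12 h in each replicate. At 72 h DEFA4 reached 278, 289 and 254 CPM, and at 120 h it was back to 24.4, 20.6 and 16.95 CPM, under all ATRA libraries of 12 h. The DMSO libraries spanned 1.86 to 3.32 CPM over 4, 12 and 24 h, 5.83 to 6.71 CPM at 72 h and 3.65 to 4.42 CPM at 120 h.

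Against DMSO, DEFA4 was 1.43-fold higher with ATRA at 4 h (log2 0.50 ± 0.15, adjusted p = 0.00991, edgeR), with no overlap between the groups. That call was lost without DMSO replicate 2 of 4 h (0.44, adjusted p = 0.0544) and under limma-voom, and over all alternatives the adjusted p ran from 0.00991 to 0.0585. DEFA4 was 16.1-fold higher at 12 h (3.99 ± 0.11), 61.5-fold at 24 h (5.95 ± 0.11), 43.0-fold at 72 h (5.43 ± 0.10) and 5.12-fold at 120 h (2.35 ± 0.11). The adjusted p at 24 h was 1.97e-33 (edgeR). Ranked by fold change, DEFA4 was number 231 of 22969 genes at 12 h, 42 at 24 h, 476 at 72 h and 2257 at 120 h. Set against the averaged DMSO groups of 24 h and 120 h, its 72 h change was 6.29.

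**Figure D2:**
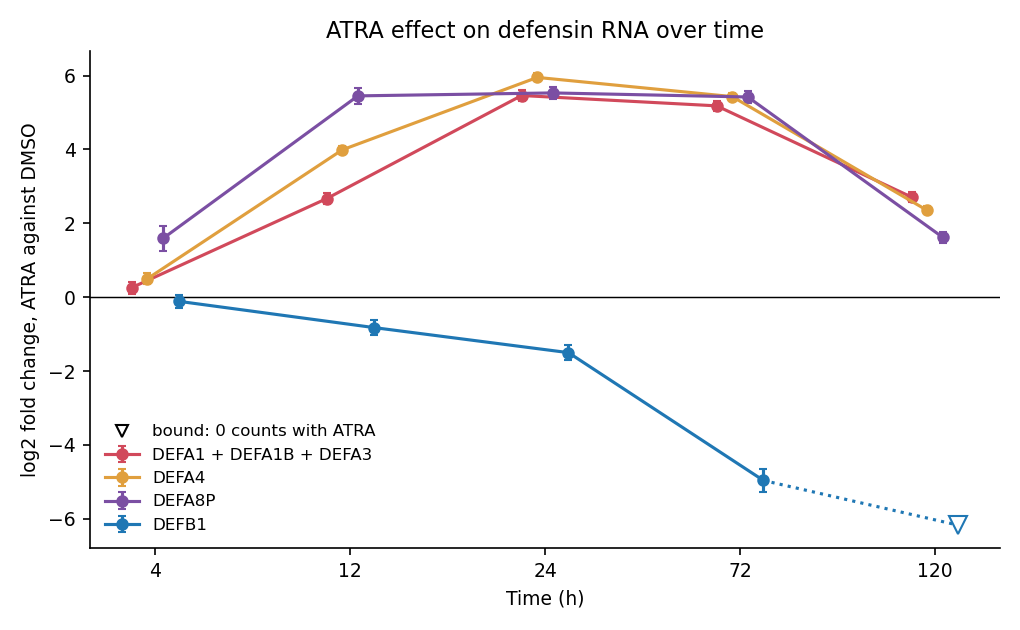
Log2 fold change of ATRA against DMSO (± standard error, 3 against 3 libraries) at each time (h) for the 4 defensin signals. The open triangle is the bound for DEFB1 at 120 h, at least 72.1-fold lower, where ATRA libraries held 0 counts. The alpha-defensin signals are above 5 at 24 h and 72 h and between 1.62 and 2.71 at 120 h.

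Levels per row length (TPM, from the merged exon length of each row) placed the DEFA4 row below the DEFA3 row in every group mean. The proportion changed with ATRA. The DEFA4 row is 781 bases long, against 617 in its annotated transcript, while DEFA3 has 498 in both. A shorter DEFA4 length would raise every proportion. With ATRA at 12 h, where the proportion was highest, which row stands higher therefore depends on the length used. DEFA4 TPM was 0.348 ± 0.0288 of DEFA3 TPM in untreated cells. With ATRA the proportion was 0.389 ± 0.0433 at 4 h, 0.832 ± 0.0274 at 12 h and 0.642 ± 0.0249 at 24 h. It then fell back to 0.338 ± 0.00831 at 72 h and 0.210 ± 0.0123 at 120 h. In DMSO it was 0.363 ± 0.0466 at 12 h, 0.504 ± 0.0960 at 24 h, 0.322 ± 0.0241 at 72 h and 0.309 ± 0.0519 at 120 h. The ATRA and DMSO libraries did not overlap at 12, 24 and 120 h and overlapped at 4 h and 72 h. The DEFA4 row thus gained on the DEFA3 row early with ATRA and stood lowest against it at 120 h. The DEFA3 row holds only fragments placed there among near-identical copies, so the proportion is between rows and not between genes. This proportion was described and not tested.

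**Figure D3:**
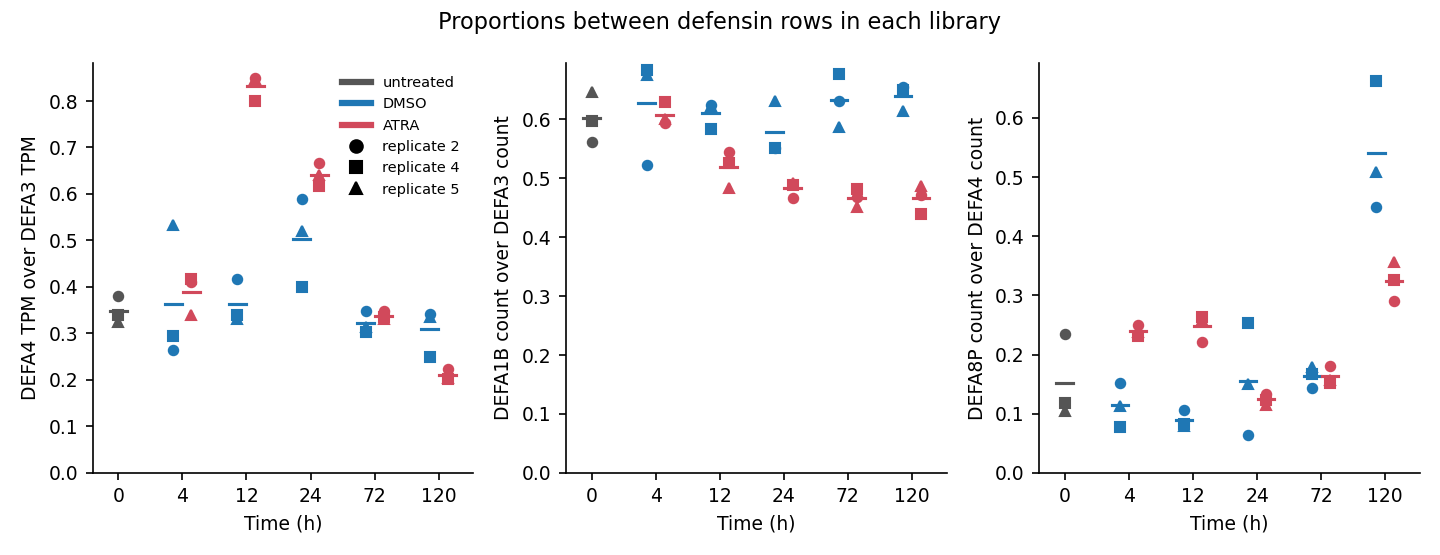
Proportions between defensin rows by time (h) in each library: DEFA4 TPM over DEFA3 TPM, DEFA1B count over DEFA3 count, and DEFA8P count over DEFA4 count. Points are libraries and bars are group means. The DEFA4 proportion is highest with ATRA at 12 h (0.832), and the DEFA8P proportion is highest with DMSO at 120 h (0.540).

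DEFA8P is an unprocessed pseudogene, a gene copy without a known peptide product, that lies beside DEFA4. Against DMSO it was 3.04-fold higher with ATRA at 4 h (log2 1.59 ± 0.33, adjusted p = 0.000268, edgeR). The ATRA libraries of 4 h held 19, 24 and 20 fragments and the DMSO libraries 7, 5 and 7, without overlap. In CPM the ATRA libraries of 4 h (0.723, 0.718 and 0.804) overlapped the untreated ones (0.837, 0.460 and 0.380). The DMSO mean at 4 h (0.246 CPM) lay below the untreated mean (0.559 CPM). Counts with ATRA were 163, 257 and 281 at 12 h and 651, 534 and 605 at 24 h. They reached 1082, 1125 and 1018 at 72 h and were 126, 147 and 129 at 120 h, so the peak fell at the same time as that of DEFA4. The log2 change was 5.45 ± 0.22 at 12 h, 5.53 ± 0.17 at 24 h, 5.42 ± 0.15 at 72 h and 1.62 ± 0.15 at 120 h, all called. In DMSO the DEFA8P counts were 48, 59 and 59 at 120 h, above every DMSO library of earlier times. Over groups, DEFA8P counts were 0.0890 to 0.540 of the DEFA4 counts. Because a fragment of the shared exon entered both rows, an unknown part of the DEFA8P counts can stem from DEFA4, and that part was not tested.

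DEFB1 moved the opposite way. It was 4.66, 4.14 and 4.59 CPM in untreated cells and 3.39, 2.66 and 3.38 CPM with ATRA at 4 h. With ATRA it was 1.40, 1.74 and 1.94 CPM at 12 h and 1.07, 1.46 and 0.707 CPM at 24 h. At 72 h the ATRA libraries held 0, 4 and 4 fragments of DEFB1, and at 120 h none of the 3 held any. All 15 DMSO libraries stayed between 2.85 and 3.83 CPM, and from 12 h on none of them overlapped the ATRA libraries of its time.

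Against DMSO, DEFB1 differed by -0.11 ± 0.18 at 4 h, which did not pass (adjusted p = 0.721, edgeR). It was 1.79-fold lower with ATRA at 12 h (log2 -0.82 ± 0.19, adjusted p = 0.000681, edgeR) and 2.80-fold lower at 24 h (-1.50 ± 0.21, adjusted p = 3.73e-07, edgeR). At 72 h, with 8 fragments in all against 256, it was 34.2-fold lower (-4.96 ± 0.32, adjusted p = 3.03e-16, edgeR). That value depends on the prior count and was -4.28 with a prior count of 2. At 120 h, with 0 fragments against 274, DEFB1 was called lower (adjusted p = 2.4e-17, edgeR). With its level bounded at 3 counts for the whole group (0.0491 CPM), it was at least 72.1-fold lower than with DMSO (3.54 CPM) and at least 90.6-fold lower than in untreated cells. These bounds cover counting error only.

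The DEFB1 row is 7141 bases long in the merged annotation, against 478 in its annotated transcript, and 45.4% of it lies opposite the gene GS1-24F4.2 on the other strand. Counting used strand, per the file headers. GS1-24F4.2 had its own course: 24.2 ± 1.04 CPM with ATRA at 24 h against 8.92 ± 0.754 with DMSO, and 0.531 ± 0.320 with ATRA at 120 h against 9.59 ± 1.61 with DMSO. It was therefore higher with ATRA at 24 h, when DEFB1 was lower, and both were low at 120 h. Whether its fragments touch the DEFB1 counts was not tested.

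Ordered by mean level over the 11 groups, the sum ran from DMSO at 12 h (5.90 CPM) through DMSO at 24 h (6.41), DMSO at 4 h (7.13), ATRA at 4 h (8.58) and untreated cells (11.3) to DMSO at 120 h (14.2). Above these came DMSO at 72 h (21.3 CPM) and ATRA at 12 h (37.9), 120 h (93.0), 24 h (284) and 72 h (774). Each neighbouring pair from DMSO at 12 h up to untreated cells overlapped, and no pair from untreated cells upwards did. DEFA4 ran in nearly the same order, from 1.99 CPM with DMSO at 12 h to 274 CPM with ATRA at 72 h, but stood lower with ATRA at 120 h (20.6) than at 12 h (31.9). Its 4 highest groups were the ATRA groups from 12 h on, with no overlap between neighbours. DEFA8P had the same 4 groups at the top, at 6.60 CPM (120 h), 7.88 (12 h), 23.3 (24 h) and 44.7 (72 h), again without overlap. For DEFB1 the ATRA groups from 12 h on were the 4 lowest, untreated cells (4.47 CPM) the highest, and the remaining 6 groups, between 3.01 and 3.57 CPM, each overlapped the next.

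In ATRA cells all 4 signals changed at every step between successive times. From 4 h to 12 h, where 35.4% of genes were called, the sum rose by a log2 value of 2.15 ± 0.14, DEFA4 by 3.35 ± 0.11 and DEFA8P by 3.40 ± 0.17, and DEFB1 fell by 0.86. From 12 h to 24 h (19.6% called) the sum rose by 2.91 ± 0.12, DEFA4 by 2.56 ± 0.08 and DEFA8P by 1.56 ± 0.11. DEFB1 fell by 0.69 at that step (adjusted p = 0.0248, edgeR), a call that did not survive leaving out ATRA replicate 4 or 5 of 12 h, or replicate 2 or 5 of 24 h, where its adjusted p ran from 0.0596 to 0.202 (0.0069 to 0.202 over all alternatives). From 24 h to 72 h (61.9% called) the sum rose by 1.45 ± 0.11, DEFA8P by 0.94 ± 0.10 and DEFA4 by 0.54 ± 0.08, while DEFB1 fell by 3.22. From 72 h to 120 h (50.4% called) the sum fell by 3.06 (8.32-fold in mean CPM), DEFA4 by 3.73 (13.3-fold) and DEFA8P by 2.76 (6.76-fold). DEFB1 went from 8 fragments to 0 at that step, and the call (adjusted p = 0.00476, edgeR) was lost under limma-voom. At 120 h the sum was still 8.24-fold, DEFA4 5.58-fold and DEFA8P 11.8-fold above untreated cells by mean CPM.

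The change of the ATRA effect between successive times, each against its own DMSO group, was tested as an interaction. Between 4 h and 12 h (14% of genes called) the effect grew by 2.41 ± 0.22 for the sum, 3.49 ± 0.20 for DEFA4 and 3.86 ± 0.53 for DEFA8P, and by -0.71 ± 0.26 for DEFB1, which did not pass (adjusted p = 0.0681, edgeR). Between 12 h and 24 h (6.89% called) it grew by 2.79 ± 0.21 for the sum and 1.96 ± 0.18 for DEFA4. The values of DEFA8P (0.07 ± 0.65) and DEFB1 (-0.68 ± 0.29) did not pass. Between 24 h and 72 h (45.9% called) the effect on DEFA4 dropped by 0.53 (adjusted p = 0.00347, edgeR), while its DMSO mean went from 3.06 to 6.37 CPM. For the sum that step was -0.27 ± 0.19 and for DEFA8P -0.11 ± 0.28, neither called, and for DEFB1 it was -3.46 ± 0.44. Between 72 h and 120 h (39.3% called) the effect dropped by 2.47 for the sum, 3.08 for DEFA4 and 3.80 for DEFA8P.

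In the control cultures the alpha-defensins first dipped and then rose. DMSO at 4 h against untreated cells (31.4% of genes called) gave -0.68 ± 0.15 for the sum, -0.75 ± 0.15 for DEFA4 and -1.09 ± 0.36 for DEFA8P, all called. The DEFA8P call at 4 h was lost without untreated replicate 2 (-0.77) or DMSO replicate 4 (-0.91). At 12 h (22.7% called) the sum stood at -0.94 ± 0.16, DEFA4 at -0.89 ± 0.15 and DEFA8P at -1.55 ± 0.38, again all called. At 24 h (19.1% called) only the sum of these 3 passed, at -0.82 ± 0.16. At 72 h (51.6% called) all 3 were above untreated cells, with 0.90 ± 0.14 for the sum, 0.78 ± 0.12 for DEFA4 and 0.99 ± 0.27 for DEFA8P. At 120 h (21.9% called, 5024 genes, or 3292 without DMSO replicate 5) DEFA8P was higher by 2.03 ± 0.23, while the sum (0.31 ± 0.14, adjusted p = 0.112, edgeR) and DEFA4 (0.12 ± 0.13) did not pass. DEFB1 was lower at 12 h (-0.55 ± 0.18, adjusted p = 0.0197) and at 24 h (-0.57 ± 0.18, adjusted p = 0.0207, edgeR) and did not pass at the other times. Leaving out 1 library ended the DEFB1 calls in 4 cases each: untreated replicate 2 or 5 or DMSO replicate 2 or 4 at 12 h, and untreated replicate 2 or 5 or DMSO replicate 4 or 5 at 24 h.

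Of 69 defensin rows in the table, 63 were not among the 6 genes, and 46 of these had no count in any library. A further 14 had 1 to 20 counts in all libraries together, and DEFB131A had 119. The pseudogene DEFA9P, also of the alpha-defensin cluster, held 1391, 1429 and 1378 fragments in the ATRA libraries of 72 h against 10, 20 and 16 with DMSO. Its log2 change with ATRA was 2.36 ± 0.53 at 4 h, 5.64 ± 0.36 at 12 h, 5.61 ± 0.25 at 24 h, 6.50 ± 0.20 at 72 h and 2.01 ± 0.18 at 120 h, all called. With DMSO DEFA9P was also above untreated cells at 120 h (3.52 ± 0.36), as DEFA8P was. DEFA6, which encodes a defensin of intestinal Paneth cells, held 26, 41 and 30 fragments with ATRA at 72 h against 2, 4 and 5 with DMSO. Its change was called at 12 h (1.73 ± 0.55), 24 h (3.01 ± 0.50) and 72 h (3.09 ± 0.45) and not at 4 h or 120 h. How far fragments of DEFA4 or DEFA3 were placed on these related rows was not tested.

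**Figure D4:**
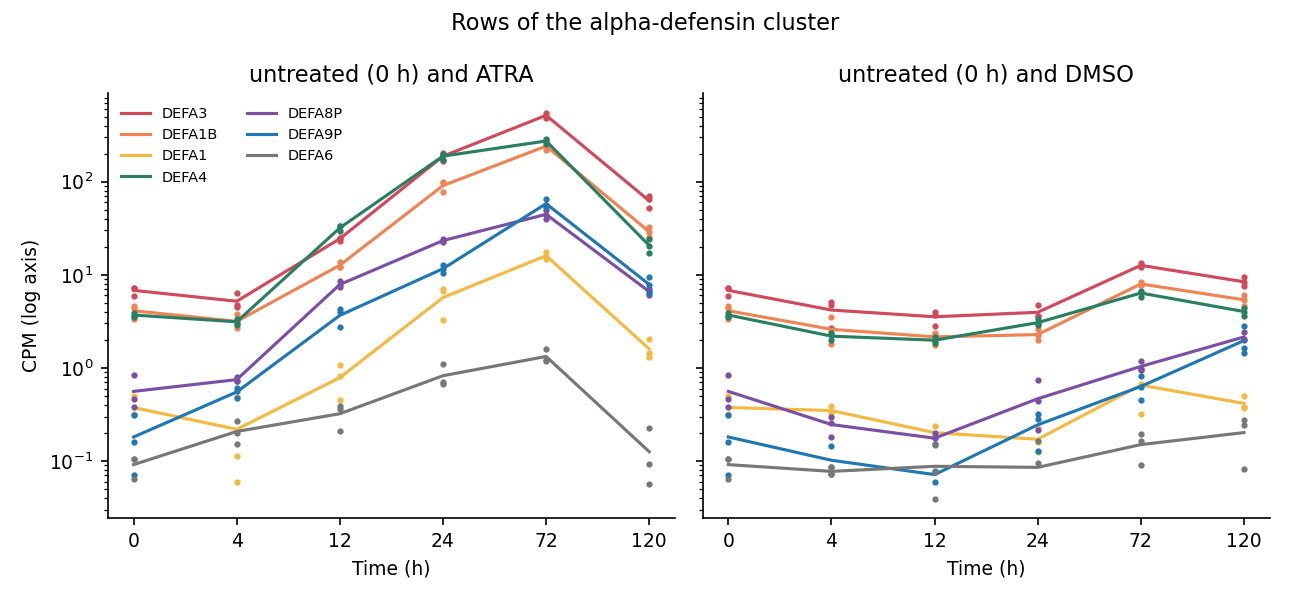
CPM (log axis) by time (h) of 7 rows of the alpha-defensin cluster in untreated and ATRA cells (left) and untreated and DMSO cells (right). Lines join group means and dots are libraries, with 1 DEFA6 library of 0 counts (DMSO at 24 h) not drawn. With ATRA all 7 rows are highest at 72 h, and DEFA3 is the highest row there (517 CPM).

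Genes of other azurophil granule proteins went both ways with ATRA. Of 17 tested genes of that list, 5 were higher and 0 lower with ATRA at 4 h, 9 higher and 4 lower at 12 h, 11 higher and 4 lower at 24 h, 9 higher and 7 lower at 72 h, and 8 higher and 9 lower at 120 h. Over all genes, the shares called in either direction at these times were 24.7%, 38.7%, 33.2%, 64.7% and 70.6%, the background for this list and those that follow. The median log2 change of the list was 0.41 at 24 h and -0.96 at 120 h, against 0.02 and -0.03 over all genes. At 24 h BPI, which binds bacterial lipopolysaccharide, rose by 7.45 ± 0.22, the lysosomal protease CTSD by 2.88 ± 0.10 and the protease inhibitor SERPINB1 by 2.68 ± 0.10, and the cystatin CST7 fell by 2.23. At 120 h BPI was higher by 8.74 ± 0.18, CTSD by 5.96 ± 0.12 and SERPINB1 by 4.67 ± 0.10, and CST7 fell by 6.18. The 9 lower genes of that time were MPO, PRTN3, AZU1, CTSG, PRSS57, RNASE2, RNASE3, CST7 and SRGN. The 8 higher ones were BPI, LYZ, CTSD, GUSB, GAA, NPC2, CD63 and SERPINB1. From 72 h to 120 h with ATRA, BPI went from 213 ± 23.9 to 146 ± 13.8 CPM, while the defensin sum went from 774 ± 54.5 to 93.0 ± 12.2 CPM. AZU1, a bactericidal serine protease homologue chosen after its values were seen, went from 123 ± 14.2 to 7.54 ± 1.28 CPM over the same step. ELANE, the neutrophil elastase gene, missed the filter with a total of 160 counts.

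**Figure D5:**
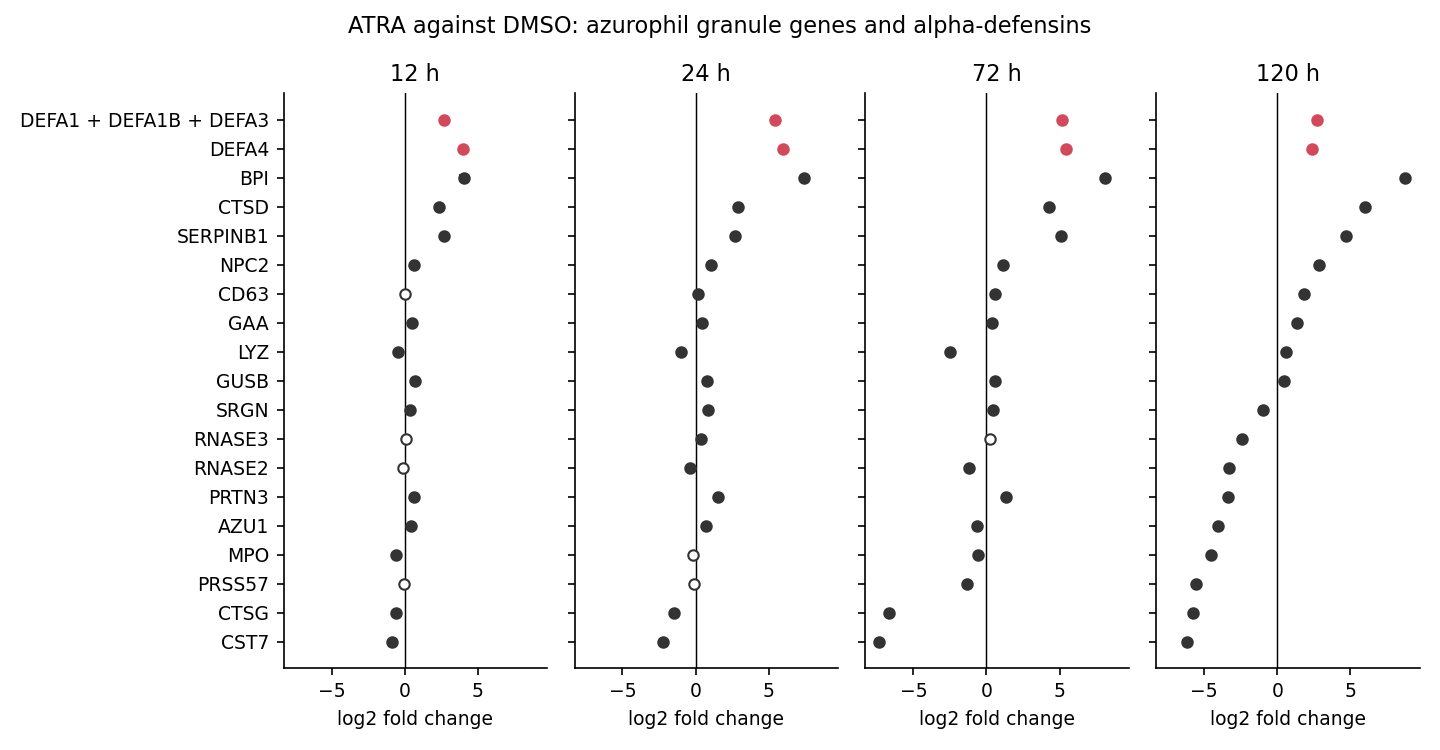
Log2 fold change of ATRA against DMSO (± standard error) at 12, 24, 72 and 120 h for 17 azurophil granule genes and the alpha-defensins (red). Filled points were called at an adjusted p under 0.05 and open points were not. At 120 h the list is split, from -6.18 (CST7) to 8.74 (BPI), with DEFA4 at 2.35 and the sum at 2.71.

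The next list held genes of later granules and of antimicrobial proteins in the cytosol. Of 14 tested, 2 were higher at 4 h, 7 at 12 h, 3 at 24 h, 8 at 72 h and 13 at 120 h, and 0, 0, 2, 1 and 0 were lower, beside the same shares of all genes called (24.7%, 38.7%, 33.2%, 64.7% and 70.6%). The list's median was 0.15 at 24 h and 6.15 at 120 h. The 2 that fell at 24 h were the gelatinase MMP9 (-1.26 ± 0.12) and CHI3L1 (-0.44 ± 0.07), and the 1 at 72 h was the haptoglobin gene HP (-5.03 ± 1.20). S100A8 and S100A9, the calprotectin subunits, rose by 3.61 ± 0.16 and 3.80 ± 0.10 at 24 h and by 9.10 ± 0.13 and 8.19 ± 0.11 at 120 h, when the defensins had dropped from their peak. CHI3L1, a chitinase-like protein of specific granules, was higher by 3.34 ± 0.07 and SLPI, a protease inhibitor, by 2.92 ± 0.09 at 120 h. LCN2, PGLYRP1, CRISP3 and TCN1 had too few counts to test.

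Of 13 transcription factors known to act on granule genes, 5 were higher and 5 lower with ATRA at 4 h, and 8 and 2 at 12 h. At 24 h 4 were higher and 1 lower, at 72 h 9 and 4, and at 120 h 8 and 4. The 5 called of 13 at 24 h stand beside 33.2% of all genes, and the 13 of 13 at 72 h beside 64.7%. CEBPE, needed for terminal granulocyte maturation, was higher by 1.94 ± 0.08 at 4 h, 2.55 ± 0.09 at 24 h and 2.98 ± 0.09 at 120 h. CEBPB, a related factor, was higher by 3.02 ± 0.15 at 4 h, 1.72 ± 0.15 at 24 h and 3.09 ± 0.15 at 120 h. MYB, a factor of immature myeloid cells, was lower at 4 h (-1.72 ± 0.06), 24 h (-0.36 ± 0.06) and 120 h (-2.97 ± 0.07). SPI1, the myeloid factor PU.1, was higher by 0.87 ± 0.07 at 24 h and 2.32 ± 0.07 at 120 h. GFI1, a repressor active in granulocyte precursors, fell by 0.64 at 4 h and by 2.28 at 120 h.

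Markers of other cells moved with ATRA as well. The myeloid identity markers of NB4 (MPO, PRTN3, AZU1, CTSG, CD33 and SPI1) summed to between 6514 and 13170 CPM in all other groups and to 761 to 1027 CPM with ATRA at 120 h, where the alpha-defensins had dropped. MPO, the myeloperoxidase gene, had the greater part of the fall between treatments, from 9624 ± 1063 CPM with DMSO to 423 ± 93.5 CPM with ATRA at 120 h. Of the 6 genes 4 were called lower and 1 higher at 120 h, beside 70.6% of all genes called. SPI1 rose by 2.32 ± 0.07, and CD33 (-0.02 ± 0.06) did not pass. The 12 monocyte and macrophage markers summed to 45.9 to 47.6 CPM in untreated cells, 86.5 to 97.1 CPM with ATRA at 24 h, 343 to 395 CPM at 72 h and 636 to 745 CPM at 120 h, and in DMSO to 39.8 to 51.3 CPM. Of that list, 5 stayed under 1 CPM in every library (MRC1, C1QA, C1QB, MARCO and VCAN), and none was at 0 throughout. All 8 that were tested were called higher with ATRA at 72 h and at 120 h, beside 64.7% and 70.6% of all genes called. The 12 epithelial markers, considered because DEFB1 is known from epithelia, summed to 20.1 to 36.6 CPM in all groups but ATRA at 72 h (44.8 to 49.3 CPM). CDH1, KRT5, KRT14 and GRHL2 stayed under 1 CPM in every library. Of the 7 epithelial markers tested, 4 were called higher and 2 lower with ATRA at 72 h, beside 64.7% of all genes called. Their log2 changes ran from -1.28 to 4.04. The 8 lymphocyte markers summed to 28.01 to 61.0 CPM up to 24 h and in all DMSO groups, and to 222 to 238 and 338 to 398 CPM with ATRA at 72 h and 120 h. NKG7, a cytotoxic granule gene, held most of these sums, with 197 ± 6.90 and 343 ± 29.8 CPM, while CD3D of the T cell receptor complex was lower by log2 values of -1.81 ± 0.35 and -1.95 ± 0.34. The 7 eosinophil and basophil markers summed to 246 to 313 CPM with ATRA at 120 h and 1947 to 2073 CPM with DMSO. PRG2, an eosinophil granule gene, made most of that difference, with 104 ± 12.0 against 1859 ± 65.9 CPM. Other members of that list went the other way: CLC rose by 9.10 ± 0.21 and CCR3 by 4.28 ± 0.39 at 120 h. The part of these changes in the defensin results was not tested.

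The genes whose log2 CPM ran most like the defensin sum over the 33 libraries were the endolysosomal exonuclease gene PLD4 (Pearson r = 0.979), the choline transporter SLC44A1 (0.959), the pentose phosphate enzyme TKT (0.951) and NADSYN1 (0.949), an enzyme of NAD synthesis, among 11421 candidates. PLD4 stood at 54.1 ± 2.53 CPM with ATRA at 72 h, 20.6 ± 5.52 at 120 h and 9.12 ± 0.972 in untreated cells, a peak of smaller height at the same time. For DEFA4 the order was SLC44A1 (0.974), PLD4 (0.969) and TKT (0.967), and for DEFA8P SLC44A1 (0.963), ELOVL6 (0.947) and HSH2D (0.943). BPI was the only gene of the azurophil list among the 8 most like the sum (0.933). For DEFB1 the highest were OGDHL (0.978), SPNS3 (0.976), MARC1 (0.973) and OSBPL5 (0.973), and 832 candidates exceeded 0.9, against 31 for the sum, 16 for DEFA4 and 30 for DEFA8P. OGDHL stood at 93.8 ± 6.02 CPM in untreated cells and 13.9 ± 1.09 with ATRA at 120 h, and did not reach 0. The 33 points share 11 groups, so these correlations describe the time course and carry no test.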

How the data were processed

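The deposited values are raw counts of fragments, summarised by gene with featureCounts 1.5.1 for paired ends on the sense strand, per the file headers. A fragment overlapping several genes was counted in each, and no option for multiply mapped fragments is recorded, per the file headers. Fragments that map equally well to several near-identical copies may therefore be missing from the DEFA1, DEFA1B and DEFA3 rows and from their sum. How many are missing was not tested. The annotation merged Ensembl and FANTOM CAT models on GRCh38 (Ensembl release 90 genome). The submitters' processing notes list the tools Trimmomatic 0.36, STAR 2.5.2b and Subread 1.5.1. The deposited gene lengths served for TPM. Symbols came from GENCODE 29 (57447 of 58970 Ensembl identifiers matched).

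Members and lists were chosen with earlier results of these data known. DEFA1, DEFA1B and DEFA3 were summed, genes passed filterByExpr, and 1 quasi-likelihood model of 11 group means was fitted to 33 libraries with edgeR 4.0.16 (R 4.3.3, TMM factors 0.827 to 1.108) and tested on simulated data. P-values were adjusted over 22969 genes with a threshold of 0.05. Fold values without log2 are ratios of mean CPM. Genes were named from the members, the lists (up to 4 of smallest p per comparison described, and list genes with few counts) and the 8 most correlated protein-coding genes per signal with an average log2 CPM of at least 1. AZU1 levels, the azurophil list genes called at 120 h and the antisense gene GS1-24F4.2 were named outside that rule. Alternatives were RLE factors, no filter, limma-voom 3.58.1, DESeq2 1.42.0, a replicate block, only the groups compared, other prior counts, single rows, a table without mitochondrial and small RNA genes, and each library left out. Lane alternatives and a sum without DEFA1B were added after seeing the data.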

Additional observations from a re-analysis of the deposited data

Results flagged for a closer look

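The ATRA effect, taken against DMSO of the same time, differed between successive times by the interaction test in edgeR (Benjamini-Hochberg adjustment over all genes) for 11 combinations of signal and step. For the sum of DEFA1, DEFA1B and DEFA3 the effect changed by 2.41 from 4 h to 12 h, by 2.79 from 12 h to 24 h and by -2.47 from 72 h to 120 h (log2). For DEFA4 it changed by 3.49, 1.96, -0.53 and -3.08 over the 4 steps in order. With the 24 h to 72 h step of DEFA4, the DMSO level also rose, from 3.06 to 6.37 CPM. For DEFA8P it changed by 3.86 from 4 h to 12 h and by -3.80 from 72 h to 120 h. For DEFB1 it changed by -3.46 from 24 h to 72 h and by -4.57 from 72 h to 120 h. The last value rests on 8 against 0 fragments and depends on the prior count: it was -1.27 with a prior count of 2 and -1.92, not called, under limma-voom. No alternative ended the calls of the sum, DEFA4 or DEFA8P among these.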

How the results depend on the processing

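Of 1331 values of the 4 signals under alternatives, 1288 kept their direction and their side of the threshold. The libraries were not treated as paired, because at no time did every same-numbered pair of ATRA and DMSO libraries correlate above 0.1. These correlations ran from -0.02 to 0.20, with 4 of 15 over 0.1 and 10 of 15 libraries best with their own number. At 12 h they were 0.19, 0.19 and 0.04, against -0.18 to 0.01 for unlike numbers. At 24 h they were -0.01, 0.01 and -0.02, against -0.01 to 0.03. Whether the numbers pair the samples at single times was not tested. The fit with a replicate block gave 5.46 for the sum and 5.95 for DEFA4 at 24 h and changed no call. Under limma-voom DEFA4 at 4 h (0.50), DEFA8P with DMSO at 4 h (-1.0), and DEFB1 from 72 h to 120 h in ATRA cells (-1.93) and as an effect change (-1.92) were no longer called, and DEFB1 with DMSO at 4 h (-0.41) was. The DEFA1 row alone gave -0.76 at 4 h, and with DMSO at 4, 12, 24 and 72 h -0.13, -0.91, -1.12 and 0.80, none called. The sum with DMSO at 120 h was called without the filter (0.31) and with only the groups compared (0.33), settings that ended the call of DEFB1 from 12 h to 24 h (-0.69 and -0.70). DESeq2 called the DEFB1 effect change from 4 h to 12 h (-0.72). In lane 3 alone the DEFA8P effect change from 24 h to 72 h was 0.04 and that of DEFB1 was -2.84.

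Leaving out each library in turn gave ranges that crossed the threshold or 0 for 11 results. With ATRA at 4 h they were 0.04 to 0.47 for the sum, 0.44 to 0.56 for DEFA4 and -0.23 to 0.01 for DEFB1. With DMSO they were -1.32 to -0.77 (DEFA8P, 4 h), -0.55 to 0.26 (DEFA8P, 24 h), -0.61 to -0.52 (DEFB1, 12 h) and -0.63 to -0.54 (DEFB1, 24 h). For DEFB1 they were -0.95 to -0.47 from 12 h to 24 h and -0.85 to -0.61 for the effect change from 4 h to 12 h. For the effect changes of DEFA8P they were -0.16 to 0.57 (12 h to 24 h) and -0.61 to 0.11 (24 h to 72 h). Genes called with DMSO at 120 h ran from 3292 (without replicate 5) to 4512, against 5024 with all libraries. On plain library totals the CPM with ATRA moved by more than 1 SD for the sum at 12 h (40.8) and 120 h (79.6), DEFA4 at 4 h (3.39) and 12 h (34.4), and DEFA8P at 4 h (0.812), 12 h (8.48) and 120 h (5.66), and DEFB1 at 120 h stayed at 0. Of the 8 genes most like each signal, 5, 5, 6 and 5 (sum, DEFA4, DEFA8P, DEFB1) were shared with a ranking over 11 group means. Except where a value above shows it, the cause was not tested. Low counts limited DEFB1 with ATRA at 72 h and 120 h, DEFA8P in DMSO and the DEFA1 row. The DEFA1 transcript is identical to that of DEFA1B over 485 aligned bases. How far this lowered the counts of the DEFA1 row was not tested.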
